A study of Caenorhabditis elegans with 2 samples.

Results

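Wnt signalling passes from secreted ligands through Frizzled receptors and the cytoplasmic Dishevelled proteins to beta-catenins, which enter the nucleus and work with a TCF factor to turn target genes on. Without the signal, TCF and corepressors of the Groucho family keep such genes off. In the nematode Caenorhabditis elegans the work of beta-catenin is divided among several proteins, and the pathway is known for polarising dividing cells and for guiding neuroblasts and axons. ALR-1 is a homeodomain transcription factor of the Aristaless family with known roles in sensory and motor neurons.

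Binding of ALR-1 was examined at 10 genes, of 19973 protein-coding genes annotated on the 6 nuclear chromosomes. They were lin-17 and mom-5 (Frizzled receptors), mig-5, dsh-1 and dsh-2 (Dishevelled proteins), bar-1, wrm-1 and sys-1 (beta-catenins), pop-1 (the only TCF factor of the worm) and unc-37 (Groucho). The genes were chosen by their place in the pathway and with the strong regions beside some of them already known, so how often they carry a region is a description here and was not tested. A region was counted for a gene when its nearest protein-coding transcript start belonged to the gene or when its point source, the position the authors' caller gives as its summit, lay in the gene body.

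The assay was chromatin immunoprecipitation with sequencing (ChIP-seq) of eGFP-tagged ALR-1 in L2 larvae. The worms were whole animals of the strain OP200, of pooled sexes, with the genotype unc-119(ed3) III and the integrated transgene wgIs200, and all belonged to 1 group with 2 biological replicates. What drives the transgene is not given in the sources used here, and a region from whole worms cannot be placed in a cell type. The deposited lists hold candidate regions, which are peaks together with background, for replicate 1 (5071), for replicate 2 (7568) and for both replicates together (12996, the pooled list). A further list holds 103 peaks that passed the authors' irreproducible discovery rate (IDR) threshold, a measure of how alike regions rank in replicates. They were the 103 regions of highest signal in the pooled list, and 84 of them overlapped a region in both replicates. An IDR peak here thus need not be strong, or even listed, in each replicate. The alr-1 gene itself held 21 pooled regions and 4 IDR peaks, with 11 regions in replicate 1 and 21 in replicate 2. Whether the transgene adds to these counts was not tested, so they are no check of the target. The lists give no read counts, so depth is unknown. The signal value of a region is the authors' own, on a scale that is not stated, and serves only to order the regions of the same list. All coordinates are on ce11.

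Of the 10 genes, mig-5 and unc-37 had an IDR peak, and both peaks lay just upstream of the gene's start. In the pooled list, the other 8 had weak candidate regions only, or none. Their strongest pooled region ranked 5056 of 12996, at mom-5, and none of their pooled regions had support from both replicates. No region in any list was counted for dsh-2 or wrm-1. Across all protein-coding genes, 0.521% had an IDR peak by the same rule.

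The sequence under the mig-5 peak is shown first, as that of a strong region, beside those of weak candidates at another Dishevelled gene and at a beta-catenin gene. Each is the 201 bases centred on the point of the pooled region, read 5′ to 3′ on the plus strand of WBcel235, the assembly of ce11, from RefSeq. All 3 genes lie on the minus strand. Capitals mark TAAT, the core of many homeodomain sites, and TTTGAT, the core of TCF sites, each searched on both strands, so that ATTA and ATCAAA are marked too. The windows are chrII:8185090-8185290 for mig-5, chrII:5218702-5218902 for the dsh-1 intron and chrX:7170934-7171134 for bar-1.
mig-5: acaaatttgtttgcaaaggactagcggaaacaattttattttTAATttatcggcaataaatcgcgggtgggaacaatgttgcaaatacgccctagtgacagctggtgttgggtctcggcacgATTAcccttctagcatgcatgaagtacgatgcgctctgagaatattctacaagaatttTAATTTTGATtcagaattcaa
dsh-1: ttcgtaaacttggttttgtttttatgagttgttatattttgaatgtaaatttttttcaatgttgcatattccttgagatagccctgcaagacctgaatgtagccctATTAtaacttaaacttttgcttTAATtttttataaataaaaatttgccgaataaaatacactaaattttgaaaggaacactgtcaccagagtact
bar-1: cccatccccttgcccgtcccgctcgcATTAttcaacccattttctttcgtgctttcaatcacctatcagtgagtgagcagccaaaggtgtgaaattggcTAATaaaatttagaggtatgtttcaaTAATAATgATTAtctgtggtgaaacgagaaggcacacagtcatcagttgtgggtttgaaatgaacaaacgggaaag

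The mig-5 window held 3 TAAT cores, whose first bases lay 58 bases before the point and 22 and 80 bases after it. The last of them was followed directly by the window's only TTTGAT. The dsh-1 window held 2 TAAT cores and the bar-1 window 5, and neither held TTTGAT. GC content was 38.8% in the mig-5 window, 27.9% in the dsh-1 window and 42.3% in the bar-1 window.

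**Figure D1:**
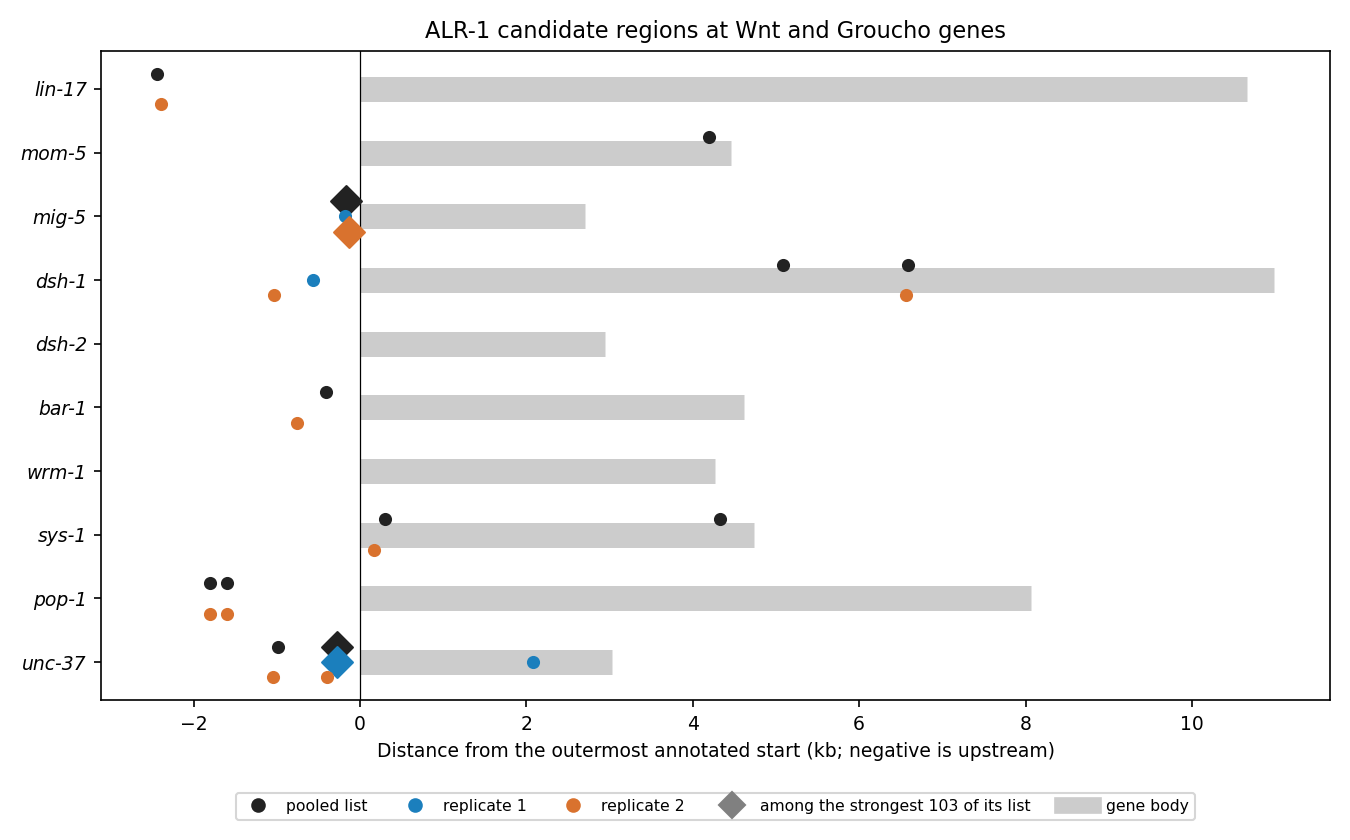
Positions of the candidate regions at the 10 genes, as the distance in kb of each region's point from the gene's outermost annotated start (negative is upstream), with the pooled list above, replicate 1 in the middle and replicate 2 below in each row. Large diamonds are regions among the strongest 103 of their list, found only upstream of mig-5 and unc-37, and grey bars are gene bodies.

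The receptor genes lin-17 and mom-5 had 1 pooled region each. The Frizzled gene lin-17 (chromosome I, 2706883 to 2717549, plus strand) had its region in intergenic sequence 2437 bp upstream of its start. It had a signal of 3.89, a rank of 6325 and a q-value of 0.458. Replicate 2 had an overlapping region, of rank 4679 and q-value 0.104, and replicate 1 had none. The Frizzled gene mom-5 (chromosome I, 9965574 to 9970037, plus strand) had its region in an exon near its 3′ end, which counted only because it lay in the gene body. The nearest start was that of tsp-7, a tetraspanin gene, at 3414 bp. With a signal of 4.65 and a rank of 5056 it was found in neither replicate's list. Neither receptor gene thus had a region within 2000 bp upstream of a start.

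The 3 Dishevelled genes differed from each other. At mig-5 (chromosome II, 8182323 to 8185023, minus strand), the IDR peak spanned II:8185030-8185349, with its point 167 bp upstream of the start. It had a signal of 21.6 and ranked 94 in the pooled list, with a q-value of 0.00125. The lowest signal of any IDR peak was 21.3 and the highest signal of a pooled region outside the IDR list was 21.2, so mig-5 stood close to the threshold. The peak fills most of a divergent promoter, since the neighbouring gene cct-1, for a subunit of the cytosolic chaperonin, is read the other way from a start 253 bp on the far side of the point. The gap between the gene bodies is 419 bp, and the list alone does not assign the peak to either gene. The region ranked 25 of 7568 in replicate 2 (signal 19.7, q-value 0.000848), but only 3488 of 5071 in replicate 1 (signal 2.65, q-value 0.260). The points of the replicates' regions were 37 bp apart.

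At dsh-1 (chromosome II, 5214400 to 5225384, minus strand), the pooled list had 2 regions in the gene body. The intronic region, II:5218642-5218961, had a signal of 3.89 and a rank of 6393, and lay 1872 bp downstream of an internal start, of 7 annotated starts. It overlapped a region of replicate 2 (rank 3261, q-value 0.0264) and none of replicate 1. The exonic region, II:5220135-5220454, had a signal of 2.78, a rank of 10768 and no counterpart in either replicate. Each replicate also had a region upstream of the outermost start, 566 bp from it in replicate 1 (rank 2985) and 1031 bp in replicate 2 (rank 4123). These were 118 bp apart without overlap, and the pooled list had neither. At dsh-2 (chromosome II, 5078233 to 5081174, minus strand), all 4 lists were empty, and the pooled region closest to its start was 2988 bp away and belonged to C04G6.4.

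The beta-catenin genes had weak regions or none. At bar-1 (chromosome X, 7166005 to 7170625, minus strand), whose product acts in the canonical branch of the pathway, a pooled region lay 409 bp upstream of the start (X:7170874-7171193). It had a signal of 3.19, a rank of 8908 and a q-value of 0.718, and overlapped no region of a replicate. Replicate 2 had a separate region 756 bp upstream, 35 bp beyond the edge of the pooled one, with a rank of 4799. At sys-1 (chromosome I, 9980063 to 9984794, minus strand), for the beta-catenin that works with POP-1 in asymmetric division, 2 pooled regions were found. The region 296 bp downstream of the start, in an intron, had a signal of 3.89 and a rank of 6305, and overlapped a region of replicate 2 with a rank of 3182 and a q-value of 0.0272. The second lay at the 3′ end of sys-1, 805 bp upstream of the start of eif-3.C, a translation initiation factor gene, with a rank of 7349 and no counterpart in either replicate. No region was counted for wrm-1 (chromosome III, 5722850 to 5727115, plus strand), whose product acts with the kinase LIT-1 on POP-1. The closest pooled region was 3401 bp from its start and was nearest to arf-1.

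The nuclear genes pop-1 and unc-37 stood apart from each other in the pooled list and in replicate 1. They did not in replicate 2, where the best pop-1 region ranked 2116 and the region at the unc-37 IDR peak 2351. At pop-1 (chromosome I, 2822243 to 2830311, minus strand), 2 pooled regions that overlap by 116 bp lay 1604 and 1808 bp upstream of the start. Their signals were 4.52 and 3.41, their ranks 5311 and 8171. Replicate 2 had 2 regions at the same points, of ranks 2116 and 3416 and q-values of 0.00827 and 0.0283, and replicate 1 had none there.

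At unc-37 (chromosome I, 6742299 to 6745329, minus strand), the corepressor gene, the IDR peak spanned I:6745444-6745763, with its point 275 bp upstream of the start. It had a signal of 23.2, a pooled rank of 67 and a q-value of 0.00125. In replicate 1 the region ranked 8 of 5071 (signal 14.9, q-value 0.00637). In replicate 2 the overlapping region ranked 2351 of 7568 (signal 4.65, q-value 0.0108). The point in replicate 2 lay 130 bp from that in replicate 1, further upstream. The peak fell in the 661 bp between unc-37 and fnci-1, a gene for a FANCI-like DNA repair protein on the same strand, and no other protein-coding gene starts in that gap. A second pooled region, of rank 4463, lay 980 bp upstream, within the gene body of fnci-1, and overlapped a region of replicate 2 (rank 2445, q-value 0.0133). A region of replicate 1 in an exon of unc-37, of rank 4437, had no counterpart in another list.

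**Figure D2:**
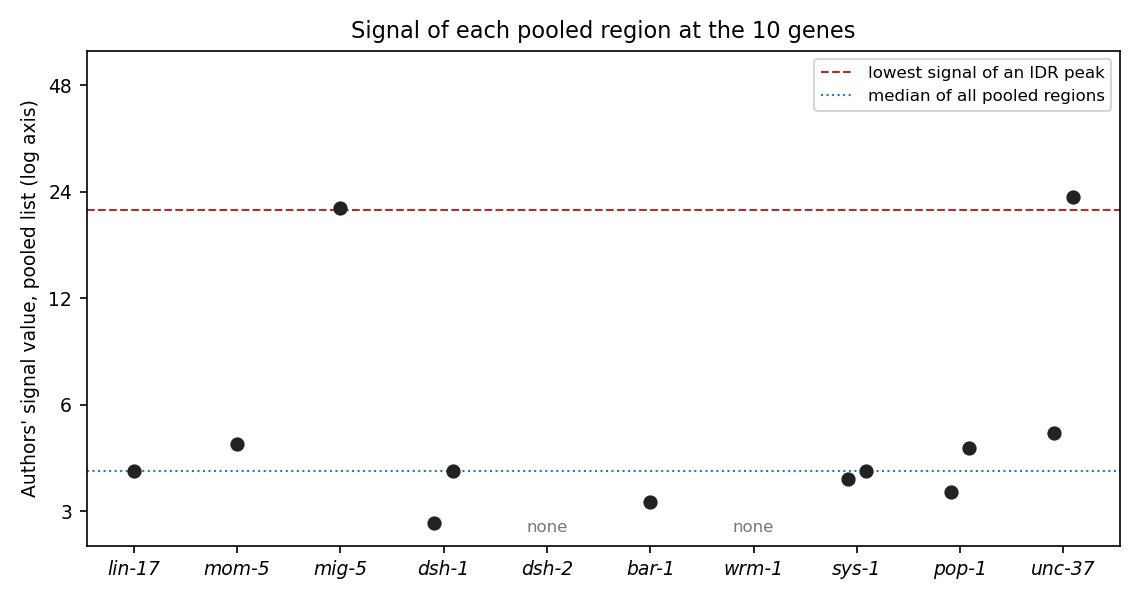
The authors' signal value of each of the 12 pooled regions by gene, on a log axis, with the lowest signal of an IDR peak (21.3, dashed) and the median of all pooled regions (3.89, dotted). The regions at mig-5 and unc-37 stand above the dashed line, and the other 10 lie between 2.78 and 4.99.

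The peaks of mig-5 and unc-37 were strong in different replicates. The mig-5 region was among the strongest 103 regions of replicate 2 and 68.8% of the way down the list of replicate 1. The unc-37 region was among the strongest 103 of replicate 1 and 31.1% of the way down the list of replicate 2. Of the 103 IDR peaks, 84 had a region in both replicates, and the gap between the replicates was measured as the ratio of the 2 rank percentages. The ratio was 208-fold at mig-5 and 197-fold at unc-37, against a median of 6.47-fold over the 84 peaks. By that measure 3 of the 84 had a wider gap than mig-5 and 4 a wider gap than unc-37. IDR peaks missing from the list of 1 replicate have no ratio and are left out of this order. Some of them ranked as high as 2 in replicate 1 or 5 in replicate 2, so the order does not cover the most unlike peaks. With the ranks themselves in place of percentages, a measure chosen after the values were seen, the ratio was 140-fold at mig-5, with 7 wider, and 294-fold at unc-37, with 2 wider, against a median of 5.71-fold. In all, 5 of the 84 ranked more than 50% of the way down the list of replicate 1, mig-5 among them. Only 1 did so in replicate 2, and it was not unc-37. By a different cutoff, not comparable with the 50% mark, 4 of the 84 ranked beyond 2000 in replicate 2, unc-37 among them. Among the strongest 103 of both replicates were 13 IDR peaks, without either of these. With 2 replicates, which of them is the more typical at these genes cannot be told, and what made the gap was not tested.

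**Figure D3:**
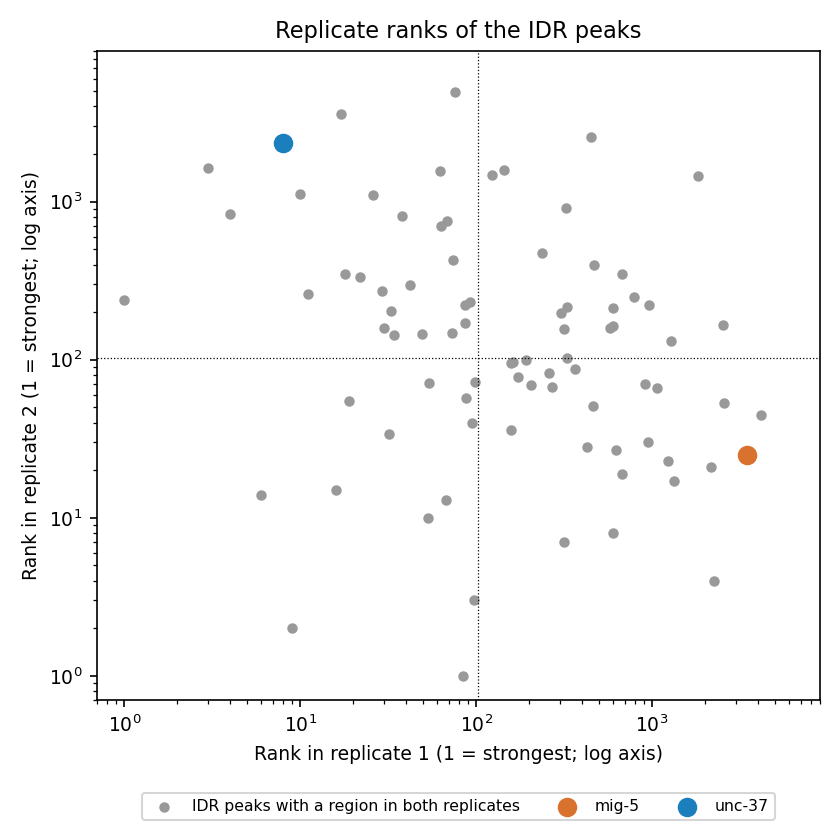
Rank in replicate 1 against rank in replicate 2, both on log axes with 1 as the strongest region, for the 84 IDR peaks that have a region in both. Dotted lines mark rank 103, and mig-5 (3488 in replicate 1, 25 in replicate 2) and unc-37 (8 and 2351) lie far out in opposite corners.

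Over all lists, the 10 genes held 12 pooled regions, 4 regions of replicate 1 and 10 of replicate 2. A pooled region was counted for 8 of the 10 genes, against 39.0% of all protein-coding genes. The 10 genes are larger than most, with a median of 7.26 kb in which a region would count for them, against 4.29 kb over all genes. Per 10 kb of this territory they held 1.35 pooled regions, against 1.24 over all genes. A replicate 1 region was counted for 3 of the 10 genes (20% of all genes) and a replicate 2 region for 7 (25.6% of all genes). A pooled region that overlapped both replicates, or ranked among the strongest 1000, was found at mig-5 and unc-37 alone, against 7.03% and 4.76% of all genes.

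Most regions at the 10 genes were ordinary members of their list. Their median pooled signal was 3.89, and so was that of all 12996 pooled regions. IDR peaks were 2 of the 12, where they made up 0.793% of the pooled list. Overlap with both replicates was found for 2 of the 12 regions (13.3% of all pooled regions), with replicate 1 for the same 2 (30.9%), with replicate 2 for 8 (48.6%) and with neither for 4 (33.8%). A q-value below 0.05 was reached by 2 of the 12 pooled regions (17.5% of the pooled list), by 1 of the 4 in replicate 1 (19.5% of that list) and by 7 of the 10 in replicate 2 (49.9% of that list). The 7 lay at mig-5, unc-37, pop-1, sys-1 and dsh-1, and at the last 3 of these genes the pooled q-values lay between 0.304 and 0.701.

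Promoters, taken to reach 1000 bp upstream and 200 bp downstream of any protein-coding transcript start, held 5 of the 12 pooled regions, against 40.3% of the pooled list. Of these 5, those at mig-5, bar-1 and the 2 at unc-37 lay at the gene's own start, and the fifth lay in the promoter of eif-3.C. Exons held 2 further regions, introns 2 and intergenic sequence 3.

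In sequence, all 12 regions held at least 1 TAAT core within 100 bp of the point, as did 80.5% of all pooled regions. The longer homeodomain sequence TAATTA, which contains TAAT on both strands, was present in 2 of the 12, the weaker unc-37 region and 1 of the pop-1 regions, against 7.97% of all pooled regions. The TCF core TTTGAT was present in 2 of the 12, at mig-5 and in the weaker unc-37 region, against 26.2% of all pooled regions. Of the 103 IDR peaks, 68 held TAAT in the same window, 8 held TAATTA and 15 held TTTGAT. IDR peaks had a mean of 1.38 TAAT cores, fewer than the 2.13 over all pooled regions. The 2 sets also differ in GC content, as given below, and the counts were not adjusted for it. Whether TAAT marks the strong regions was thus not tested. The unc-37 IDR peak held 2 TAAT cores, neither TAATTA nor TTTGAT, and had a GC content of 48.8%, the highest of the 12, which ran down to 26.4%. The median GC content was 36.8% for the 12 regions, 37.8% for all pooled regions and 44.3% for the IDR peaks, which ran from 32.3% to 58.2%. A match to letters is a description of the window and does not show a bound site.

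The other 30 genes of a list of 40 Wnt pathway genes had no IDR peak, against 0.521% of all genes. A pooled region was counted for 20 of them, against 39.0% of all genes. They held 1.80 pooled regions per 10 kb of territory. A replicate 1 region was counted for 15 of them and a replicate 2 region for 13. Of the 5 ligand genes, 4 had no region in any list, and cwn-1 had 1 of rank 6949. That region counted only because it lay in the gene body. Its nearest start was that of srd-3, at 2095 bp, and it overlapped no region of a replicate. Among the strongest 1000 pooled regions were those of 5 of the 30 genes, against 4.76% of all genes. The strongest lay in an intron of mom-1, which encodes the Porcupine enzyme of ligand secretion, with a rank of 163 and a signal of 18.9. It ranked 47 in replicate 2 and overlapped no region of replicate 1. Nearly as strong was an intergenic region of sfrp-1, for a secreted Frizzled-related protein that binds ligands, with a pooled rank of 165. It lay 4130 bp downstream of the nearest sfrp-1 start, beyond the 3′ end of the gene. It ranked 717 in replicate 1 and 113 in replicate 2.

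The kinase gene lit-1, which acts with WRM-1, had 8 pooled regions in a large territory of 28.2 kb. Of these, 2 ranked 544 and 633, both in promoters. The first was found in replicate 2 only (rank 226), and the second in both replicates (ranks 299 and 1427). A promoter region of snx-3, a sorting nexin gene of the ligand secretion route, ranked 707 and was found in both replicates (ranks 2006 and 532). The phosphoinositide phosphatase gene mtm-3 had 6 pooled regions in a territory of 12.5 kb, with a best rank of 905. That region ranked 62 in replicate 2 and was absent from the list of replicate 1. Just beyond the strongest 1000, lsy-22, for a second Groucho-type protein, had an intronic region of rank 1021 with counterparts in both replicates (ranks 1976 and 978). The strongest regions of all 40 genes were those of unc-37 and mig-5, which were known when the genes were chosen.

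**Figure D4:**
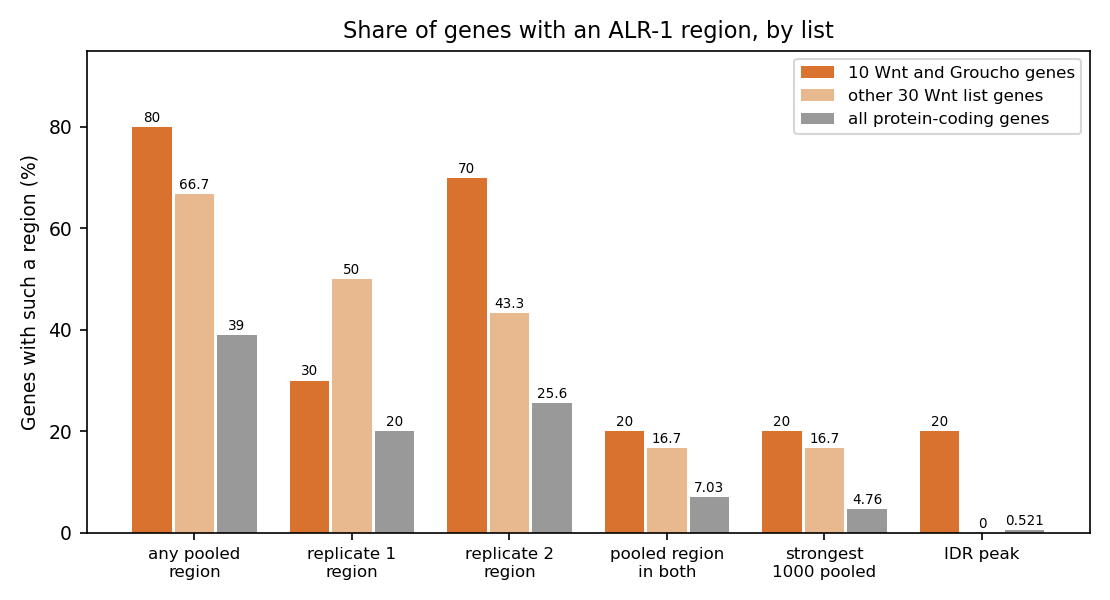
Share of genes in percent with a region by each of 6 rules, for the 10 Wnt and Groucho genes, the other 30 genes of the Wnt list and all 19973 protein-coding genes. An IDR peak was counted for 2 of the 10 genes, none of the other 30 and 0.521% of all genes.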

How the data were processed

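Candidate regions were called by the authors for replicate 1, for replicate 2 and for both together, always with a control, and the IDR list was derived from these 3 lists, per the deposited file notes. The control was not analysed here. No aligner, caller or IDR cutoff is named in the labels or file notes. The signal value and the q-value, deposited as −log10 q, are the authors' values per region. They have no replicate error, and no SD can be given. The −log10 q-values of the deposited pooled list reached a ceiling of 2.90 in 402 regions, so ranks use signal. Only the ce11 lists were used. All regions lay inside the WBcel235 chromosomes.

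Genes and transcript starts came from Ensembl release 115. Regions were shared when they overlapped by at least 1 bp. No tests were made: the members, lists and rules for named genes were chosen with earlier results of these data known. All 10 members are named, and from the Wnt list those with a region among the strongest 1000. Other genes, such as lsy-22 and cwn-1, were named after their values were seen. Alternatives covered the assignment rule, each replicate alone, stricter lists, overlap rules, and promoter and motif windows. The assignment code was tested on simulated data. Python 3.11.15, numpy 2.4.6, pandas 2.3.3 and matplotlib 3.10.9 were used.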

Additional observations from a re-analysis of the deposited data

How the results depend on the processing

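Of 25 alternative settings over 7 counts, 12 stayed within 1.5 times the reported count. No paired analysis was possible because the samples form 1 group. The 8 genes with a pooled region became 3 when only the gene body counted and 2 among the strongest 1000 regions, and lay between 3 and 7 when a single replicate was used. The 2 genes with an IDR peak became 0 for the stronger 51 IDR peaks and 0 when only the gene body counted, and with each replicate alone 1 gene had a region among the strongest 103. The 12 pooled regions became 5 with the gene body only, and 4 to 10 with each replicate alone. Regions in promoters, 5 in all, were 3 when promoters reached 500 bp upstream and 100 bp downstream, and 8 when they reached 2000 bp upstream. Regions with TTTGAT, 2 in all, were 1 within 50 bp and 4 within 150 bp. Narrower rules count fewer regions by construction, and the cause was not tested otherwise. Unknown depth sets an unknown limit on weak regions.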
